A study of Mus musculus with 6 samples.

Results

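The lysosome of the lymph node was described through 34 genes: 10 cathepsins, which are its proteases, and 24 other genes of lysosomal digestion, membrane and acidification, or marking macrophages. They were chosen by symbol from a deposited table of 50559 genes, and all 34 were found and passed the filter of a mean of at least 1 CPM (reads of a gene per 1000000 reads assigned to genes). The values come from RNA sequencing of whole inguinal lymph nodes of mice, in 6 libraries, 3 labelled Control and 3 labelled Naringin, the flavonoid glycoside of grapefruit. The Naringin mice received 200 mg/kg per day mixed into their food, and the nodes were then removed. The labels used here give no feeding time, control diet, strain, age or sex. They also do not tell whether a group's libraries stem from separate animals, so p-values measure only the spread between these libraries, which may be technical.

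Lysosomes are acidic organelles in which hydrolases break down material taken in from outside or delivered by autophagy. A proton pump, the V-ATPase, acidifies them, membrane glycoproteins line them, and the transcription factor TFEB raises many of their genes together by binding a short palindromic motif. Every cell has lysosomes, but macrophages, which clear cell debris, pathogens and antibody-coated particles in the sinuses and medulla of the node, hold far more of them. In antigen-presenting cells, cathepsins also cut antigens and the invariant chain for display on MHC class II. The genes were therefore split into 10 that are enriched in macrophages (Cd68, Lyz2, Gpnmb, Ctsb, Ctss, Ctsk, Ctsl, Ctsz, Lgmn and Grn) and 24 general lysosomal genes. The split is not sharp, since dendritic and B cells also make Ctss, stromal cells Ctsk and Ctsl, and neutrophils Lyz2.

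Depth was 13074180 to 14976422 assigned reads per library, and the lowest count of a lysosomal gene in a library was 60 reads. Control 3 stood apart from the others by gene length: its median deviation from the gene mean on the log2(CPM + 1) scale was 0.16 over the 4652 genes with the shortest exons and -0.26 over the 4652 with the longest. In the other libraries the same medians lay between -0.071 and 0.14. Tissue markers were those of a node: the B cell gene Ms4a1 had at least 363 CPM, while the skin keratins Krt14 and Krt5 and the muscle gene Myh4 were at 0 in at least 5 of 6 libraries. Of the 3 other skin and muscle genes listed, the keratin Krt10 had 2.68 to 4.01 CPM, and the muscle genes Acta1 and Ckm stayed at or under 0.401 and 0.153 CPM. Adipocyte genes summed to 13.5 to 56.9 CPM in Control and 5.53 to 21.0 CPM with naringin. Because these are whole nodes, fewer cells of a type and less RNA per cell cannot be told apart.

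No lysosomal gene passed the test between Control and Naringin, and the groups of all 34 overlapped. Most of the 34 genes were high in Control 3 and Naringin 1 and low in Naringin 3, and the macrophage-enriched genes spanned a wider range than the general ones. Together they took 1.06%, 1.03% and 1.62% of the reads in Control 1, 2 and 3, and 1.53%, 1.26% and 0.935% in Naringin 1, 2 and 3. Values are listed in that order below. A log2 fold is the mean log2(CPM + 1) of Naringin minus that of Control, tested with limma, a linear model that shares its estimate of the spread across genes. The heat map of the 34 genes shows this pattern, with the exceptions among the steadier genes.

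Between Control and Naringin, 19 of the 34 genes had a higher and 15 a lower mean with naringin (14 higher after upper-quartile scaling), and the median log2 fold was 0.02, against 0.02 over all genes tested. Of all 14873 genes tested, 8431 had a higher and 6442 a lower mean, a split close to that of the 34. The macrophage-enriched genes had a median of -0.03, with 4 higher and 6 lower, and the general genes 0.04, with 15 higher and 9 lower. At an adjusted p under 0.05, limma called 0 of the 34, and 0% of the 14873 genes tested. At an unadjusted p under 0.05 it had 0 of the 34, where all genes gave 1.43% (0.975% higher and 0.457% lower). The groups did not overlap in 0 of the 34, where all genes gave 5.65% (3.36% higher and 2.29% lower). On reads recovered from the CPM, edgeR called 0 of the 34 and 0% of all genes, and DESeq2 0 of the 34 and 0.0202% of all genes. Both had 0 of the 34 at an unadjusted p under 0.05, against 1.57% and 1.53% of all genes.

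**Figure D1:**
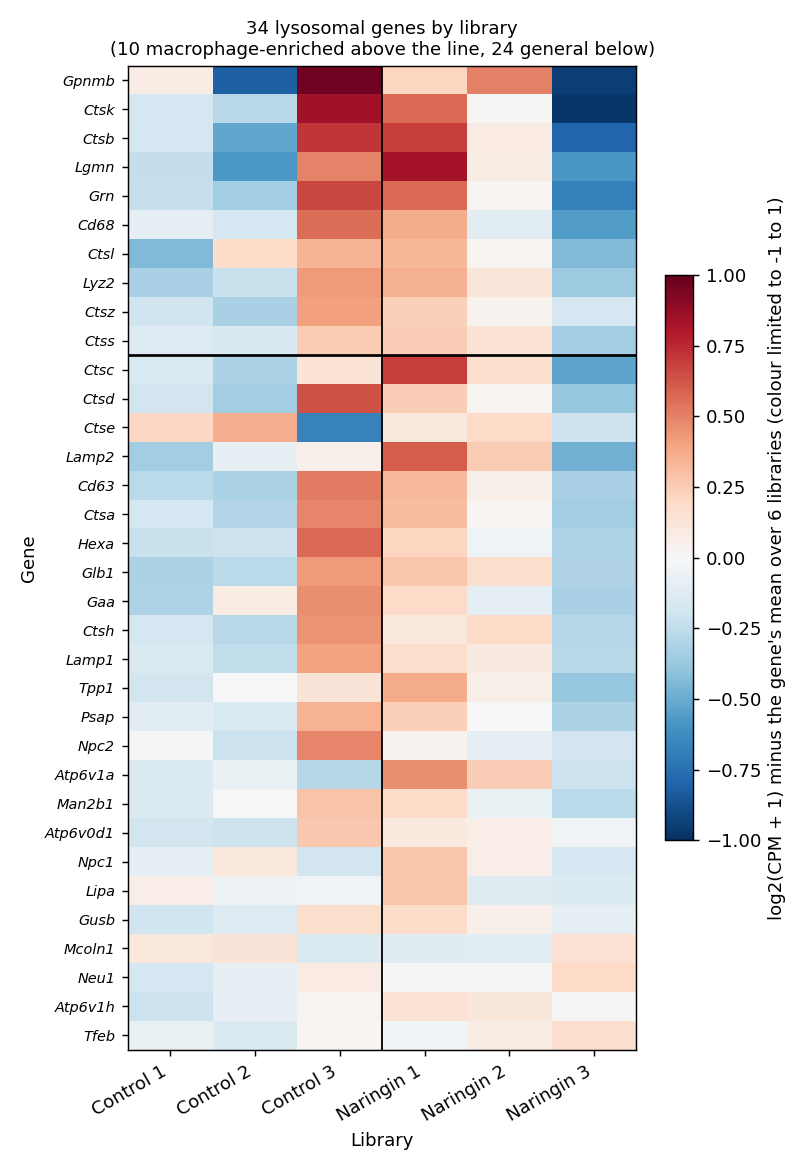
Each row is a gene and each column a library; colour gives log2(CPM + 1) minus the gene's mean over the 6 libraries, and genes are ordered by their spread within groups inside each of the 2 sets. Red dominates Control 3 and Naringin 1 and blue Naringin 3, and Tfeb, Atp6v1h, Neu1 and Mcoln1, with the smallest spread, stay pale.

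These counts do not show that the genes were equal in the 2 groups. The 95% intervals of limma lay within 1.5-fold in both directions for 16 of the 34 and reached at least 1.5-fold for the other 18. For Ctsb the interval allowed a change of log2 -0.96 to 0.93, and for Tfeb, Neu1, Atp6v0d1 and Atp6v1h it stayed within 1.5-fold. The balance of directions rested on single libraries. The number of the 34 genes with a higher mean went from 19 to 31 without Control 3 and to 31 without Naringin 3. Leaving out Naringin 1 gave 9 and Naringin 2 gave 16. Leaving out Control 1 gave 12 and Control 2 gave 11. The median over the macrophage-enriched genes ran from -0.27 without Naringin 1 to 0.28 without Control 3.

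Without Control 3, 3 of the 34 had an unadjusted p under 0.05 in limma: Atp6v0d1, Atp6v1h and Ctsz, with log2 folds of 0.24, 0.24 and 0.30. Of all genes tested, 9.35% were under that p in the same fit, a share near that of the 34. Without Naringin 3 there were also 3, namely Atp6v1a, Lamp2 and Ctsc, at 0.52, 0.55 and 0.54, where 3.45% of all genes were under that p. None of them passed when adjusted over all genes, with smallest adjusted p-values of 0.450 and 0.9998 (limma). The plot of log2 folds shows the estimates and intervals with all 6 libraries.

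**Figure D2:**
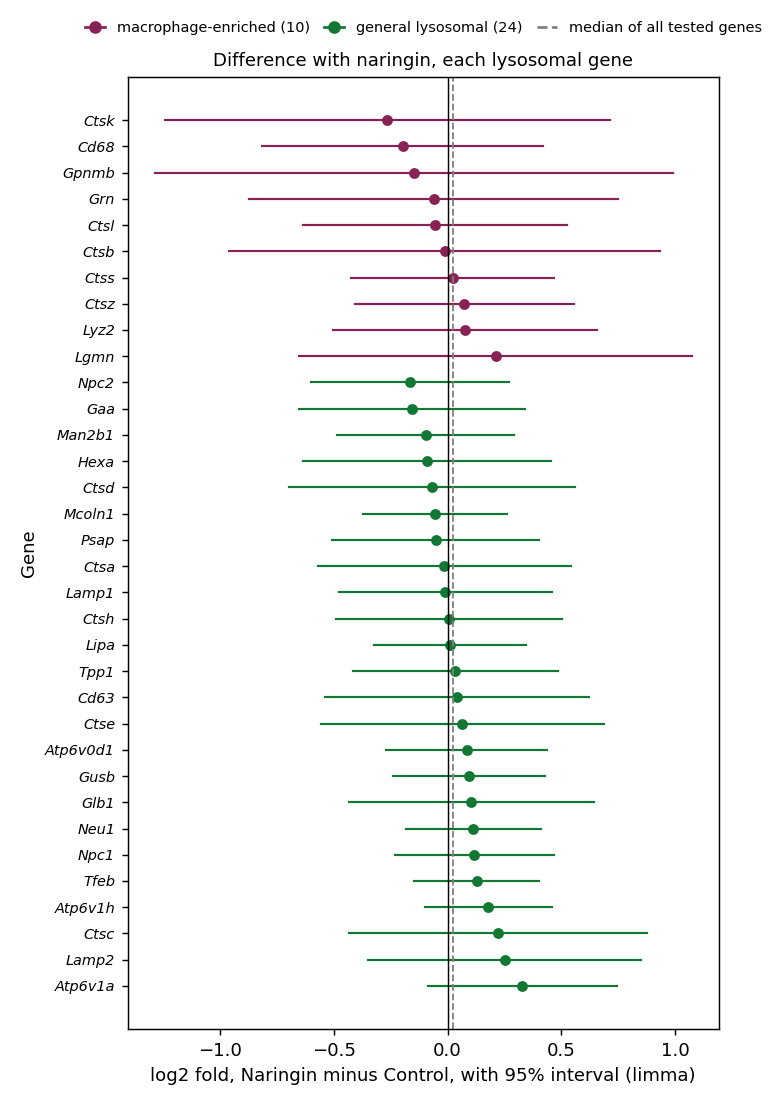
The horizontal axis is the log2 fold, Naringin minus Control, on the log2(CPM + 1) scale; points are estimates for each of the 34 genes and lines their 95% intervals from limma. All 34 intervals span 0, and those of the macrophage-enriched genes Gpnmb, Ctsk and Ctsb are the widest.

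Tfeb, the transcription factor of lysosomal genes, was among the least variable members, with a within-group SD of 0.09 on the log2 scale against a median of 0.33 over the 34. It stood at 58.5, 56.2 and 62.4 CPM in the Control libraries and 59.8, 65.0 and 69.3 CPM in the Naringin libraries, with a log2 fold of 0.13 ± 0.12 (SE) and a 95% interval of -0.15 to 0.40 (limma). Naringin 2 and 3 lay above all controls and Naringin 1 among them. Its own level says nothing of its activity, which is set largely by where the protein sits in the cell. The palindrome TCACGTGA, which TFEB is known to bind, was searched in the promoter windows of RefSeq (GRCm38.p6, 250 bases before to 50 after a start; being its own reverse complement, it covers both strands, and it holds the shorter CACGTG). A window was found for 29 of the 34 genes, all but Ctsb, Ctse, Ctsh, Npc1 and Atp6v1h. The palindrome was in 5 of the 29 (17.2%), against 304 of 27025 genes (1.12%), and CACGTG in 10 of the 29 (34.5%), against 2187 of 27025 (8.09%). Of the other lysosomal genes described below, 70 had a window, with the palindrome in 8 (11.4%) and CACGTG in 17 (24.3%). The motif was already tied to lysosomal genes, so a higher share among them is no finding of these data. The 60 bases around the first match are shown for the 5 of the 34 genes with the palindrome. Capitals mark the palindrome, and each runs 5′ to 3′ on the gene's strand.
Ctsa, chr2:164833734-164833793, plus strand: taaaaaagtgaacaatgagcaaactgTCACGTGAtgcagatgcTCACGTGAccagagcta
Ctsd, chr7:142387893-142387952, minus strand: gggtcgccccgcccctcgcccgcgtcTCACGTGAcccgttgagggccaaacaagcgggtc
Atp6v0d1, chr8:105566035-105566094, minus strand: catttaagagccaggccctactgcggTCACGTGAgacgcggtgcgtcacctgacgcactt
Atp6v1a, chr16:44139358-44139417, minus strand: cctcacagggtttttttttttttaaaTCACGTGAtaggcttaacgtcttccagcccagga
Mcoln1, chr8:3500447-3500506, plus strand: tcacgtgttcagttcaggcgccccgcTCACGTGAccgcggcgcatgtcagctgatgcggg

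The first base of the match lies 13 bases before the start for Ctsa, 99 for Ctsd, 4 for Atp6v0d1, 132 for Atp6v1a and 46 for Mcoln1. Ctsa carries 2 matches. Among these 5 genes, the peptidases Ctsa and Ctsd and the V-ATPase subunit Atp6v0d1 were highest in Control 3, where Ctsd reached 1.99 times its Control 2 value. The V-ATPase subunit Atp6v1a and the calcium channel Mcoln1 were lowest there, at 0.859 and 0.823 times Control 2. Atp6v1a and Mcoln1 have the longest exons of the 5, 6.04 and 7.56 kb, against 1.79 kb for Atp6v0d1, 2.35 kb for Ctsd and 4.72 kb for Ctsa. Control 3 was shifted toward short genes, and the part of length or of the motif was not tested. A match describes the letters and is not a bound site. The plot of CPM by group shows Ctsd, Atp6v1a, Mcoln1 and Tfeb beside the abundant members.

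Macrophage lysozyme, Lyz2, an enzyme that cuts bacterial walls, was the most abundant of the 34 genes both in CPM and per length, at 2026 CPM per kb of exon. Length here counts all annotated exons of a gene, so levels per length are approximate. Lyz2 stood at 2081, 2223 and 3503 CPM in the Control libraries and 3336, 2833 and 2019.7 CPM in the Naringin libraries. Control 3 and Naringin 1 were the high libraries, the groups overlapped, and the log2 fold was 0.08 ± 0.25 (SE), with a 95% interval of -0.50 to 0.66 (limma). Cd68, a heavily glycosylated lysosomal membrane protein used to stain macrophages, stood at 81.5, 77.0 and 128 CPM in the Control libraries and 112, 80.7 and 58.5 CPM in the Naringin libraries, again highest in Control 3 and lowest in Naringin 3. Its log2 fold was -0.20 ± 0.27 (SE), and its sign turned without Control 3 (0.03) and without Naringin 3 (0.03). Grn, the gene of progranulin, which supports lysosomal enzymes, lay between 172 CPM (Naringin 3) and 438 CPM (Control 3). Gpnmb, a glycoprotein of lipid-laden and stressed macrophages, had the lowest level per length of the 34, 1.65 CPM per kb, and the widest spread. It stood at 10.1, 4.99 and 19.6 CPM in the Control libraries and 11.3, 14.0 and 4.48 CPM in the Naringin libraries, so Control 3 exceeded Control 2 by 3.94 times within one group.

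Cysteine cathepsins formed the largest protease set, with 7 genes: Ctsb, Ctsc, Ctsh, Ctsk, Ctsl, Ctss and Ctsz. Their summed level was 2615, 2397 and 4117 CPM in the Control libraries and 4138, 3192 and 2100.5 CPM in the Naringin libraries. Control 3 and Naringin 1 thus lay close together, although they carry different labels, and Naringin 3 was the lowest. Ctsb, a broad endopeptidase of macrophages, stood at 975, 771 and 1810.4 CPM in the Control libraries and 1785, 1168 and 635 CPM in the Naringin libraries. Its means were 1185 ± 551 CPM for Control and 1196 ± 575 CPM for Naringin (SD, n = 3 each), and its log2 fold of -0.01 ± 0.41 (SE) carried a 95% interval of -0.96 to 0.93 (limma). The difference between groups was far smaller than the spread inside each: Control 3 was 2.35 times Control 2, and Naringin 1 was 2.81 times Naringin 3.

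Ctss, which removes the invariant chain in B cells, dendritic cells and macrophages, varied less, at 607, 595 and 794 CPM in the Control libraries and 787, 729 and 522 CPM in the Naringin libraries. Its within-group SD was 0.28 on the log2 scale, against 0.69 for Ctsb, and its log2 fold was 0.02 ± 0.20 (SE). The collagen-degrading Ctsk, best known from osteoclasts, was scarce and variable, between 4.20 CPM (Naringin 3) and 17.2 CPM (Control 3). Ctsl, a lysosomal endopeptidase, differed from its relatives in Control 2, where it stood at 219.7 CPM against 142 CPM in Control 1. The carboxypeptidase Ctsz and the aminopeptidase Ctsh had log2 folds of 0.07 and 0.01; both were highest in Control 3.

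Ctsc, the dipeptidyl peptidase that activates granule proteases of cytotoxic and myeloid cells, had the smallest p of the 7. It stood at 330.2, 295 and 403 CPM in the Control libraries and 594, 411 and 255 CPM in the Naringin libraries, with Naringin 1 above all others and Naringin 3 below all others. Its log2 fold was 0.22 ± 0.29 (SE) with an unadjusted p of 0.46 (limma), and 0.54 without Naringin 3. Of the 7 cathepsins, 6 had their highest value in Control 3 and 1, Ctsc, in Naringin 1.

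The remaining 3 cathepsins belong to other protease classes. Ctsd, the main aspartic protease of lysosomes, stood at 705, 627 and 1244 CPM in the Control libraries and 948, 816 and 615 CPM in the Naringin libraries. Control 3 was the highest library, and the log2 fold was -0.07 ± 0.27 (SE). Ctsa, a serine carboxypeptidase that also shields Glb1 and Neu1 from degradation, followed the same order at the ends, with 254 CPM (Naringin 3) as the lowest and 455 CPM (Control 3) as the highest value. Ctse, an aspartic protease of endosomes rather than of lysosomes, ran the other way in Control. With naringin it did not, and Naringin 3 was again the lowest of that group. Ctse stood at 19.1, 21.5 and 10.02 CPM in the Control libraries and 17.8, 19.1 and 14.1 CPM in the Naringin libraries. Control 3, highest for 21 of the 34 genes, was its lowest library.

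Legumain, Lgmn, an asparagine-specific protease that activates cathepsins and cuts antigens, was one of the most variable members. It stood at 166, 130.5 and 275 CPM in the Control libraries and 347, 205 and 129.7 CPM in the Naringin libraries. Naringin 1 was the highest and Naringin 3 the lowest, 2.68 times apart in one group, and the log2 fold was 0.21 ± 0.38 (SE). Its 95% interval, -0.65 to 1.07 (limma), with those of Gpnmb and Ctsk, was 1 of only 3 among the 34 genes that reached a 2-fold difference. Tpp1, a tripeptidyl peptidase, had a narrower range, 94.8 to 160.2 CPM, with the same libraries at its ends.

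The 6 glycosidases remove sugars from glycoproteins, glycolipids and glycogen. Hexa, a subunit of beta-hexosaminidase, ranged from 129 to 238 CPM, and the beta-galactosidase Glb1 from 39.6 to 66.9 CPM, each with Control 3 on top. Gaa, which digests glycogen, and the alpha-mannosidase Man2b1 also peaked in Control 3, with log2 folds of -0.16 and -0.10. The beta-glucuronidase Gusb was steadier, between 94.8 and 124 CPM. The sialidase Neu1 had the smallest p of the 6. It stood at 49.6, 53.0 and 59.5 CPM in the Control libraries and 55.4, 55.8 and 64.4 CPM in the Naringin libraries, with its highest value in Naringin 3, the library in which most of the 34 genes were lowest, and its log2 fold was 0.11 ± 0.13 (SE).

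Of the 4 genes for lipid handling, Psap, precursor of the saposins that present lipids to hydrolases, was the next most abundant member per length, at 802 CPM per kb. It stood at 2008, 1957 and 2762 CPM in the Control libraries and 2560.2, 2175 and 1748 CPM in the Naringin libraries. The groups overlapped over most of their range, and the log2 fold was -0.05 ± 0.20 (SE). The cholesterol carrier Npc2, a soluble protein, stood at 460.3, 402 and 654 CPM in the Control libraries and 478, 438 and 409 CPM in the Naringin libraries. Control 3 was the only control above every naringin value, and the log2 fold of -0.17 ± 0.19 (SE) became 0.04 without it. Its membrane partner Npc1, which exports cholesterol from the lysosome, did not share the peak: Control 3, at 47.2 CPM, was its lowest library, and the log2 fold was 0.12. The acid lipase Lipa stayed between 75.6 and 101 CPM.

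Lamp1 and Lamp2, the glycoproteins that coat the inner face of the lysosomal membrane, differed in which library led. Lamp1 lay between 389 CPM (Naringin 3) and 622 CPM (Control 3). Lamp2 stood at 112, 134 and 148 CPM in the Control libraries and 217, 170.0 and 102 CPM in the Naringin libraries, with Naringin 1 and 2 above all 3 controls and Naringin 3 below them. Its log2 fold of 0.25 ± 0.26 (SE) was 0.55 without Naringin 3 and 0.01 without Naringin 1. The tetraspanin Cd63 of late endosomes had a log2 fold of 0.04. The calcium channel Mcoln1, which releases lysosomal calcium, stood at 48.9, 49.6 and 40.8 CPM in the Control libraries and 41.7, 42.1 and 50.2 CPM in the Naringin libraries. Control 3 was its lowest library and Naringin 3 its highest, the reverse of the common order.

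The 3 V-ATPase subunits had the highest median log2 fold of any role with more than 1 gene, 0.18, and all 3 means were higher with naringin, also under both other scalings. Atp6v1a, the catalytic subunit, had the smallest p of the 34 genes (0.107 unadjusted and 0.9996 adjusted over all genes, limma). It stood at 73.4, 77.6 and 66.6 CPM in the Control libraries and 112, 96.8 and 69.7 CPM in the Naringin libraries. Naringin 1 and 2 lay above every control, but Naringin 3 lay between Control 3 and Control 1, so the groups overlapped. The means were 72.5 ± 5.51 CPM for Control and 92.9 ± 21.5 CPM for Naringin (SD, n = 3 each), and the log2 fold was 0.33 ± 0.18 (SE) with a 95% interval of -0.09 to 0.75. The regulatory subunit Atp6v1h stood at 48.5, 53.1 and 57.5 CPM in the Control libraries and 62.4, 60.9 and 56.8 CPM in the Naringin libraries, with only Naringin 3 below the highest control, and a log2 fold of 0.18 ± 0.12 (SE). Atp6v0d1, of the membrane sector, had 0.08. Among 14 further V-ATPase genes the median log2 fold was 0.03, with 10 higher and 4 lower, and 0 with an unadjusted p under 0.05 in limma.

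**Figure D3:**
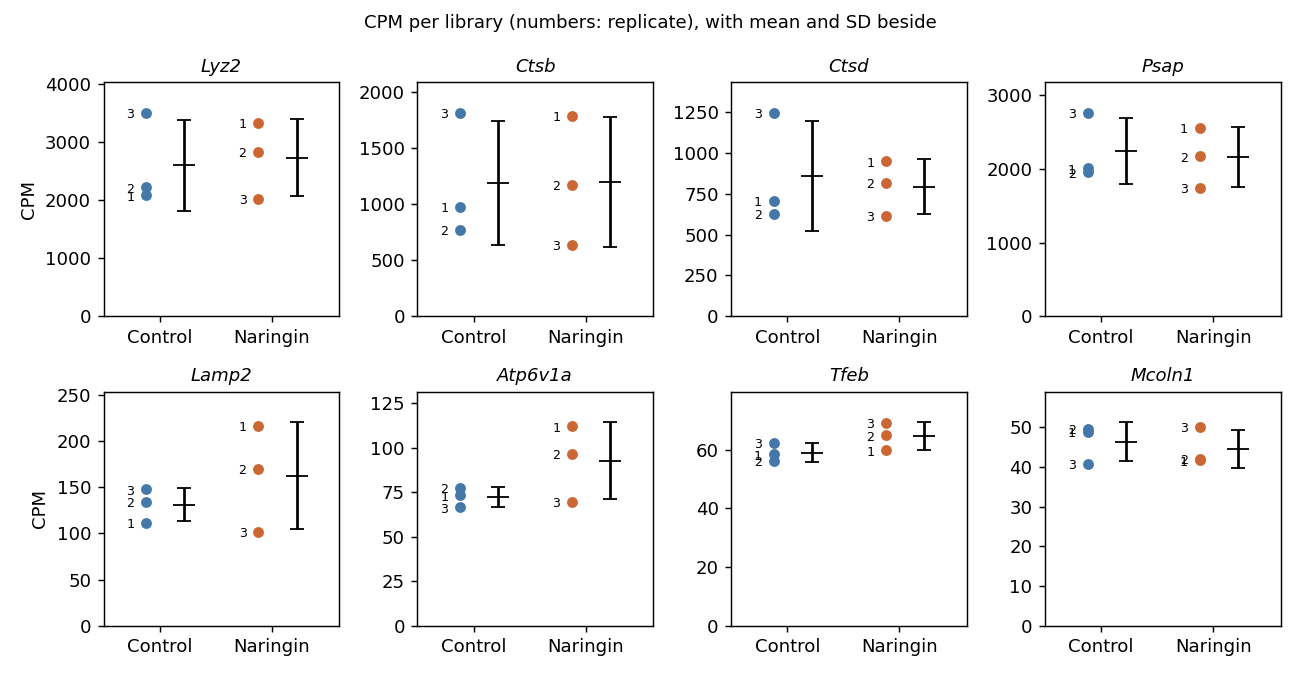
Each point is a library's CPM (vertical axis, from 0) for 8 of the genes, numbered by replicate, with the group mean and SD of 3 libraries beside it. Control 3 and Naringin 1 are the top points for Lyz2, Ctsb, Ctsd and Psap, while Tfeb and Mcoln1 are highest in Naringin 3.

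The macrophage-enriched and general genes were compared by their deviation from each gene's own mean, as a description with no test of the difference. The median deviation of the 10 macrophage-enriched genes was -0.19, -0.30 and 0.53 in Control and 0.36, 0.05 and -0.57 with naringin on the log2(CPM + 1) scale. For the 24 general genes it was -0.17, -0.13 and 0.22 in Control and 0.20, 0.06 and -0.27 with naringin. Both sets ordered Control 3 and Naringin 1 at the top and Naringin 3 at the bottom, and the range between libraries was 1.10 for the first set and 0.496 for the second. Within a group, the median SD was 0.51 for the macrophage-enriched genes, 0.28 for the general genes and 0.23 over all 14873 genes tested. By gene, 8 of the 10 macrophage-enriched and 8 of the 24 general genes were at least 1.5 times higher in Control 3 than in Control 2. Between Naringin 1 and Naringin 3 the counts were 9 of 10 and 8 of 24. The macrophage-enriched genes made up 42.7% of the summed CPM of the 34 in Naringin 3 and 48.7% in Naringin 1. Exon length was not alike in the sets. Cd68, Lyz2, Ctss, Ctsk and Ctsz had 1.26 to 1.51 kb of exon, less than any general gene. Gpnmb, Ctsb and Ctsl had 6.05 to 6.51 kb. Control 3 was shifted toward short genes, and the part of length in the difference between the sets there was not tested.

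Macrophage markers outside the 34 genes moved with this order. The summed level of 15 such markers was 1806, 2104 and 3728 CPM in the Control libraries and 4286, 2779.9 and 1382 CPM in the Naringin libraries, and the median deviation of the 13 tested was -0.33, -0.23 and 0.46 in Control and 0.82, 0.24 and -0.91 with naringin. Of these 13, 10 were highest in Naringin 1, 3 in Control 3, and 11 were lowest in Naringin 3. Csf1r, the growth factor receptor of macrophages, stood at 190.1, 251 and 394 CPM in the Control libraries and 435, 295 and 138 CPM in the Naringin libraries. Siglec1, the sialic acid receptor of sinus macrophages, ranged from 62.5 to 323 CPM, the surface protein Adgre1 from 14.1 to 75.3 CPM, and the complement gene C1qa from 189.9 to 506 CPM. Cd163 stayed at or under 1.34 CPM, and Vsig4 had 1 read in all libraries together. With naringin 7 of the 13 had higher and 6 lower means, with a median log2 fold of 0.0088, and 0 had an unadjusted p under 0.05 in limma. The markers' part in the order of the lysosomal genes was not tested.

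**Figure D4:**
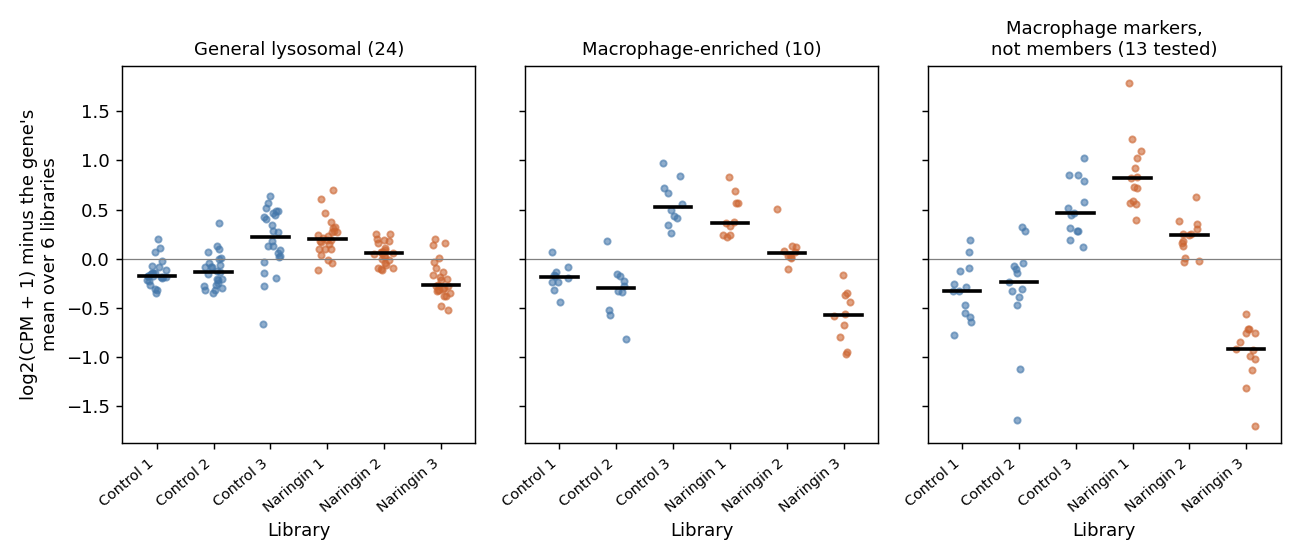
Points are genes, the vertical axis is log2(CPM + 1) minus the gene's mean over the 6 libraries, and black bars are medians, for 24 general and 10 macrophage-enriched lysosomal genes and 13 macrophage markers. The 3 panels share the low position of Naringin 3 and differ in the distance between libraries, which grows from left to right.

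Other cells that carry some of these genes moved in part the same way. Neutrophil markers, 8 genes, summed to 58.2, 60.6 and 239 CPM in the Control libraries and 282, 138 and 54.4 CPM in the Naringin libraries, and 5 of the 6 tested were highest in Naringin 1; Ly6g was at 0 in Control 1 and Naringin 3. Stromal markers, 8 genes, summed to 747, 813 and 1323 CPM in the Control libraries and 1714, 1166 and 695 CPM in the Naringin libraries, with 5 of 8 highest in Naringin 1. The median deviation of the 6 lymphatic vessel markers was -0.44, 0.19 and 0.30 in Control and 0.90, 0.12 and -0.89 with naringin, with 5 of 6 highest in Naringin 1 and 4 lowest in Naringin 3. Their sum, mostly the chemokine gene Ccl21a, was 729.9, 1128 and 1379.6 CPM in the Control libraries and 998, 1001 and 1003 CPM in the Naringin libraries. Dendritic cell markers, 8 genes, varied less, from 322 to 367 CPM in Control libraries and from 249 to 357 CPM with naringin. B and T cell markers did not follow this order, and their medians were highest in Naringin 3. The median deviation of 6 B cell markers was -0.16, 0.03 and -0.15 in Control and -0.15, 0.16 and 0.17 with naringin. For the 5 T cell markers tested it was 0.06, 0.02 and 0.08 in Control and -0.09, -0.24 and 0.14 with naringin. By group, 3 of the markers tested did not overlap. Cxcl13 of the stromal markers was higher in every naringin library (log2 fold 0.84, unadjusted p 0.0054, limma). Cd209a (dendritic, -0.55, p 0.024) and Cd4 (T cell, -0.24, p 0.087) were lower in every one. Each had an adjusted p of 0.9996, and 5.65% of all genes did not overlap. The part of these cell types in the order of the lysosomal genes was not tested either. In Control 3, 12 of 12 lysosomal genes with the shortest exons lay above their own mean. For middle length it was 10 of 11, and for the longest 7 of 11. The 5 below their own mean were Ctse, Atp6v1a, Lipa, Mcoln1 and Npc1. Median deviations in Control 3 were 0.43, 0.45 and 0.05 over the short, middle and long lysosomal genes, so short and middle ones hardly differed. Gpnmb (0.97) and Ctsb (0.71), among the longest, were high there. In Naringin 3, where the 34 genes had a median deviation of -0.31, the medians over all genes were 0.004, 0.006 and 0.007 for short, middle and long genes. The part of length was not tested in either library.

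Other genes of the lysosome, 90 in the table and 87 tested, gave a wider view of the pathway: hydrolases, V-ATPase, membrane and sorting proteins, signalling factors and protease inhibitors. Of the 87, 56 had a higher and 31 a lower mean, with a median log2 fold of 0.04. All 14873 genes tested gave 8431 higher and 6442 lower, with a median of 0.02. Naringin 3 was the lowest library for 29 of the 87, against 21 of the 34 and 2080 of all 14873. The median deviation of the 87 by library spanned 0.296, against 0.684 for the 34, so the library order was weaker here. In limma 0 of the 87 passed after adjustment and 1 had an unadjusted p under 0.05, beside 1.43% of all genes. That gene was Lamp3, a relative of Lamp1 found in mature dendritic cells. It was low, at 1.22, 2.10 and 1.00 CPM in the Control libraries and 2.28, 2.74 and 3.01 CPM in the Naringin libraries, with every naringin value above every control value and a log2 fold of 0.61 ± 0.23 (SE). The next smallest p-values among the higher genes were those of Gla, an alpha-galactosidase, and Slc17a5, the sialic acid exporter, with 0.35 and 0.25. Among the genes with lower means, the smallest p was that of Cln3, a lysosomal membrane protein, at 54.1, 57.3 and 59.5 CPM in the Control libraries and 50.7, 47.7 and 49.1 CPM in the Naringin libraries. Its groups did not overlap, and the log2 fold was -0.21 ± 0.11 (SE) with an unadjusted p of 0.102 (limma). Abca2, a lipid transporter, and Ctsw, a cathepsin of cytotoxic lymphocytes, came next by p, with log2 folds of -0.24 and -0.22. Of the 87 genes, every naringin value was higher in 2 (Lamp3 and Sumf1) and lower in 1 (Cln3). Over all genes tested the shares were 3.36% and 2.29%, so non-overlap was not more common here.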

How the data were processed

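Lymph node RNA from 6 libraries, 3 Control and 3 Naringin, was analysed. Column names of the table were matched to the leading number of the sample titles. The authors deposited CPM: reads of a gene divided by the reads assigned to genes, times 1000000, since each column has that sum. Per the submitters' processing notes, Trimmomatic 0.39, STAR 2.7.9a, featureCounts of Subread 1.6.0, edgeR 3.40.0 and build mm39 were used. Not given in the sources used here were the annotation, the strand setting and how reads shared between genes were treated. CPM is a share, so large changes elsewhere move every gene. Totals were 13074180 to 14963386 reads in Control and 14276848 to 14976422 reads in Naringin.

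Values were analysed as log2(CPM + 1), so folds of low genes are understated. Genes averaging 1 CPM or more (14873) were tested with limma 3.58.1 in R 4.3.3 (trend, robust, 2-sided, Benjamini-Hochberg over all genes, threshold 0.05). All of the CPM above 0 were whole multiples of 1 read within 0.01 read (100%), and edgeR 4.0.16 and DESeq2 1.42.0 were run on those reads; the steps were tested on simulated data. Exon lengths came from GENCODE M21, summed over all exons of a gene. They can exceed the length of the transcripts present, so levels per kb and comparisons by length are approximate. No 2 libraries were alike within sampling noise (chi-square per degree of freedom 7.68 or more). The members and lists were chosen with earlier results of these data known. Named were the 5 most abundant members, the smallest p of each role and the 3 smallest p in each direction among the other lysosomal genes; further members were named to cover every role. Alternatives were other pseudocounts, filters, scalings and tests, a replicate block, a narrower macrophage-enriched list and leaving out each library.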

Additional observations from a re-analysis of the deposited data

How the results depend on the processing

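Under every alternative run, 0 of the 34 lysosomal genes passed the adjusted threshold, and their smallest unadjusted p ran from 0.0106 (without Naringin 3) to 0.243 (without Naringin 2). Over all genes, DESeq2 called 3 and limma without Control 3 called 1, the range when leaving out a library being 0 to 1; the cause was not tested. The medians over the 4 gene lists moved by less than the within-group spread of the library medians. Leaving out 1 of 3 libraries can hardly move them further than that, so this says little about their stability. The median of the macrophage-enriched genes ran from -0.27 to 0.28. The count of the 34 with a higher mean ran from 9 to 31 when 1 library was left out. Of 639 log2 folds recomputed for 40 named genes, 571 kept their sign, and 58 of the 68 sign changes came from leaving out a library. The turned folds were Ctss -0.022, Ctsh -0.038, Cd63 -0.0017, Lipa -0.031 and Tpp1 -0.0086 with upper-quartile scaling, Ctsh -0.0021 with TMM scaling, Ctsh -0.037 and Cd63 -0.0077 in edgeR and Ctsh -0.048 and Cd63 -0.019 in DESeq2. The cause was not tested. The log2 folds whose sign turned when 1 library was left out had these ranges: Cd68 -0.43 to 0.034, Lyz2 -0.081 to 0.31, Gpnmb -0.60 to 0.30, Ctsb -0.36 to 0.38, Ctss -0.095 to 0.20, Ctsk -0.61 to 0.16, Ctsl -0.29 to 0.15, Ctsz -0.07 to 0.30, Lgmn -0.15 to 0.56, Grn -0.36 to 0.26, Ctsa -0.17 to 0.23, Ctsc -0.071 to 0.54, Ctsd -0.26 to 0.23, Ctse -0.25 to 0.26, Ctsh -0.13 to 0.23, Lamp1 -0.14 to 0.19, Cd63 -0.11 to 0.31, Hexa -0.22 to 0.17, Gaa -0.35 to 0.038, Glb1 -0.026 to 0.34, Lipa -0.12 to 0.084, Npc2 -0.31 to 0.035, Psap -0.18 to 0.11, Atp6v0d1 -0.001 to 0.24, Tpp1 -0.14 to 0.23 and Man2b1 -0.22 to 0.022.

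With the replicate number as a block, 0 of the 34 and 0 of all genes passed, and 157 genes had an unadjusted p under 0.05. Same-numbered libraries did not deviate together (correlations of -0.26, -0.019 and -0.27 over the tested genes), so the numbers were not taken to pair samples. The lowest count of a lysosomal gene in a library was 60 reads.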

Other observations

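The balance between Ctsb and Cst3, the secreted cystatin that inhibits cysteine cathepsins, also varied by library. Cst3 stood at 519, 491 and 954 CPM in the Control libraries and 654, 627 and 493 CPM in the Naringin libraries, and its log2 fold was -0.09 ± 0.26 (SE). The ratio of the CPM of Ctsb to that of Cst3 was 1.88, 1.57 and 1.90 in Control and 2.73, 1.86 and 1.29 with naringin. Naringin 1 had the highest ratio and Naringin 3 the lowest, although Ctsb itself stood at 1810.4 CPM (Control 3) and 1785 CPM (Naringin 1). The ratio of the CPM of Ctsd to that of Mcoln1 was 14.4, 12.6 and 30.5 in Control and 22.8, 19.4 and 12.3 with naringin, highest in Control 3. Both ratios pair genes of unlike exon length: 6.05 kb for Ctsb and 1.27 kb for Cst3, 2.35 kb for Ctsd and 7.56 kb for Mcoln1. Control 3 was shifted toward short genes, and the part of length in these ratios was not tested. The 3 relatives of Tfeb, Tfe3, Mitf and Tfec, were all highest in Naringin 1 and lowest in Naringin 3, unlike Tfeb itself, but over different ranges. Tfe3 stood at 47.2, 42.6 and 47.9 CPM in the Control libraries and 49.4, 44.3 and 42.4 CPM in the Naringin libraries. Mitf stood at 9.71, 7.73 and 8.22 CPM in the Control libraries and 16.1, 12.8 and 6.65 CPM in the Naringin libraries. Tfec stood at 9.03, 7.08 and 13.9 CPM in the Control libraries and 15.4, 10.9 and 5.39 CPM in the Naringin libraries. Their log2 folds were -0.02 ± 0.12 (SE), 0.35 ± 0.29 (SE) and 0.02 ± 0.36 (SE). These genes were chosen after their values were seen.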
